A study of Homo sapiens with 6 samples.

Results

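The genes described here are 37 genes of glucose uptake, glycolysis, lactate and pyruvate handling, and hypoxia-inducible factor (HIF) response. They were chosen by gene symbol from the 60612 genes of the deposited FPKM table (read fragments scaled by transcript length and library size), and all 37 were among the 19279 genes with enough counts to be tested. RNA sequencing had been done on U251 cells, an established human glioma line, with 3 libraries of cells given 6-shogaol and 3 control libraries of cells without it. All cells carried the wild-type genotype (WT in the labels), grew in DMEM containing 10% fetal bovine serum and were collected at 24 h. The labels give the dose as 60 with the unit "μm", taken as micromolar. 6-shogaol is a pungent compound of dried ginger. The labels do not say whether replicates came from separate cultures, so the p-values cover only library-to-library spread, possibly technical. In bulk RNA, fewer cells of a kind and less RNA per cell cannot be told apart.

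Glycolysis breaks glucose down to pyruvate in the cytosol. Glucose enters through GLUT transporters, hexokinase and phosphofructokinase commit it to breakdown, and the enzymes from aldolase to pyruvate kinase recover its energy as ATP. Pyruvate is then either reduced to lactate by lactate dehydrogenase or carried into the mitochondrion and oxidised by the pyruvate dehydrogenase complex, which the PDK kinases switch off. When oxygen is low, HIF-1 and HIF-2 escape degradation and bind short DNA sites with the core ACGTG or GCGTG. Between them they raise transcription of many glycolytic genes together with NDRG1, BNIP3 and the collagen prolyl hydroxylases. Gliomas are known for high glucose use and for hypoxic zones in which these genes are on.

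Total counts were 43516840 to 55225898 in 6-shogaol libraries and 52132767 to 60018999 in control libraries, and the member with the fewest counts, ALDOC, had 646 over all 6 libraries. 6-shogaol library 1 stood apart from its replicates: its counts differed from theirs with a chi-square per degree of freedom of 63.7 and 54.6, against 31.3 between 6-shogaol libraries 2 and 3 and 34.0 to 45.3 among control libraries. Of the glioma line's markers, VIM had 5602 to 9763 CPM with 6-shogaol and 6872 to 7020 CPM in control cells. GFAP, an astrocyte filament, was low, with 8.39 to 9.19 CPM with 6-shogaol and 23.8 to 33.9 CPM in control cells (log2 fold change -1.62, edgeR adjusted p = 0.00655), and NES also fell (log2 fold change -0.42, edgeR adjusted p = 0.0484). SOX2 and CD44 were not called, with 235 to 257 CPM with 6-shogaol and 289.6 to 329 CPM in control cells for SOX2 (edgeR adjusted p = 0.0646), and 267 to 311 CPM with 6-shogaol and 232 to 247 CPM in control cells for CD44 (edgeR adjusted p = 0.12). S100B, another astrocyte marker, was near the detection limit, at 0.23 to 0.712 CPM with 6-shogaol and 0.31 to 1.35 CPM in control cells. The 9 markers of other cell types summed to 60.3 to 74.1 CPM with 6-shogaol and 52.9 to 55.6 CPM in control cells, nearly all of it SYT1. Among them MOG had no counts in any library and the endothelial CDH5 fell (0.538 to 0.827 CPM with 6-shogaol, 2.22 to 2.50 CPM in control cells, edgeR adjusted p = 0.0192). The part of these markers in the results below was not tested.

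Of the 37 genes, 3 rose with 6-shogaol and 0 fell, and the 3 that rose were all HIF targets outside glycolysis: NDRG1, P4HA2 and P4HA1. A call here means an adjusted p under 0.05 in edgeR's quasi-likelihood test with Benjamini-Hochberg adjustment over all genes tested. Over all 19279 genes, 1.67% were called higher and 1.71% lower. At an unadjusted p under 0.05, 12 of the 37 were higher and 4 lower, against 10.4% and 9.95% of all genes. DESeq2 called 7 of the 37 higher and 0 lower, against 4.96% and 5.13% of its 15412 genes. Limma on log2(FPKM + 1) called 6 of 35 higher and 0 lower, against 3.53% and 2.51% of its 12591 genes. The groups did not overlap in CPM (TMM-scaled counts relative to library size) for 11 genes that were higher with 6-shogaol and 6 that were lower, against 14.0% and 13.9% of all genes. The median log2 fold change of the 37 was 0.05, with quartiles of -0.12 and 0.26, and that of all genes was -5.32e-05.

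The calls depended on which libraries entered, for the 37 genes and for all genes alike. Without 6-shogaol library 1, 8 of the 37 genes were called: NDRG1, P4HA1, P4HA2, BNIP3, BNIP3L, PFKFB4 and PGK1 higher and TPI1 lower. That fit called 1012 of 19953 genes, against 651 of 19279 with all libraries. Leaving out 6-shogaol library 2 left 2 calls among the 37, NDRG1 and P4HA2, and 166 among 20360 genes. Leaving out 6-shogaol library 3 left 1, NDRG1, and 174 among 20219 genes. Leaving out control library 1, 2 or 3 also left NDRG1 alone, with 141, 98 and 170 calls over all genes.

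**Figure D1:**
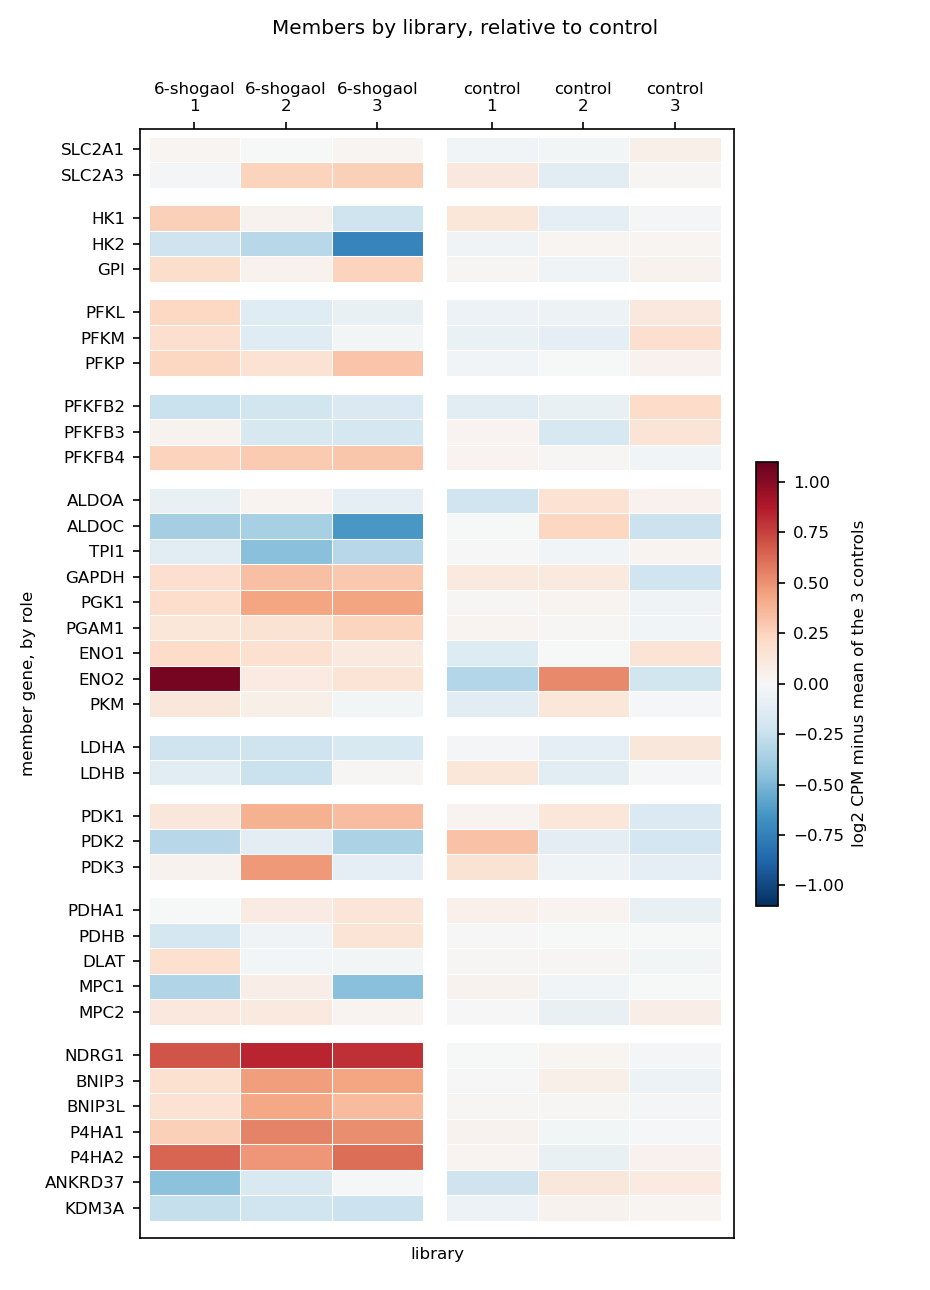
Log2 CPM of each of the 37 genes (rows, grouped by role) in each library (columns) minus the mean of the 3 control libraries. Red is above and blue below the control mean; NDRG1, P4HA1 and P4HA2 are red in all 3 6-shogaol columns, and the ENO2 value of 6-shogaol library 1 stands out from libraries 2 and 3.

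NDRG1 rose most among the 37. It encodes a cytoplasmic protein induced by hypoxia and by cell stress, and lies at chromosome 8, 133237175 to 133302022, minus strand, in the deposited table (ENSG00000104419). It had 272, 300.5 and 293 CPM in 6-shogaol libraries 1, 2 and 3, and 168, 171 and 166 CPM in control libraries 1, 2 and 3. Every 6-shogaol library lay above every control library, and the control values were tightly grouped. The means were 289 ± 14.7 CPM with 6-shogaol and 168 ± 2.53 CPM in control cells (SD, n = 3 each), a 71.4% increase (log2 fold change 0.78, standard error (SE) 0.06, edgeR adjusted p = 0.00496). Per length it had 20.5 ± 0.682 FPKM with 6-shogaol and 11.8 ± 0.119 FPKM in control cells.

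P4HA1 and P4HA2 encode catalytic subunits of prolyl 4-hydroxylase, which hydroxylates collagen in the endoplasmic reticulum so that its triple helix is stable. P4HA2 (ENSG00000072682) lies at chromosome 5, 132191838 to 132295315, minus strand, in the deposited table. P4HA2 had 83.1, 74.8 and 81.6 CPM in 6-shogaol libraries, and 54.7, 50.5 and 55.3 CPM in control libraries. The groups were far apart relative to their spread, with means of 79.9 ± 4.40 CPM with 6-shogaol and 53.5 ± 2.65 CPM in control cells (SD, n = 3 each). The increase was 49.3% (log2 fold change 0.58, SE 0.08, edgeR adjusted p = 0.0151). P4HA1 (ENSG00000122884; chromosome 10, 73007217 to 73096974, minus strand) had 189, 229.5 and 225 CPM in 6-shogaol libraries, and 162, 155 and 156 CPM in control libraries. The groups did not overlap, and 6-shogaol library 1 was the lowest of the treated ones. The means were 215 ± 22.4 CPM with 6-shogaol and 158 ± 3.57 CPM in control cells (SD, n = 3 each), a 36.1% increase (log2 fold change 0.44, SE 0.09, edgeR adjusted p = 0.0456).

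BNIP3 and BNIP3L encode related proteins of the outer mitochondrial membrane that mark mitochondria for removal by autophagy. Neither was called by edgeR. BNIP3 had 286, 349 and 343 CPM in 6-shogaol libraries, and 254, 265 and 242 CPM in control libraries (log2 fold change 0.36, SE 0.09, edgeR adjusted p = 0.0799). BNIP3L had 196, 236 and 223 CPM in 6-shogaol libraries, and 176, 177 and 172 CPM in control libraries (log2 fold change 0.32, SE 0.08, edgeR adjusted p = 0.0824). All 6-shogaol values of both genes lay above all control values, and in both genes 6-shogaol library 1 was nearest to control. DESeq2 called both (adjusted p = 0.0171 for BNIP3 and 0.0286 for BNIP3L), and limma called BNIP3L (adjusted p = 0.0473) and not BNIP3 (adjusted p = 0.0501). The log2 count ratio of BNIP3 to BNIP3L was 0.58 ± 0.04 with 6-shogaol and 0.53 ± 0.05 in control cells (SD, n = 3 each). Its groups overlapped, with a difference of 0.04 (exact two-sided permutation p = 0.3, and 0.4 after adjustment over 8 ratios).

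The remaining 2 of the 7 genes listed as HIF targets outside glycolysis had negative log2 fold changes and were not called. KDM3A, a histone H3 lysine demethylase, had 74.4, 76.8 and 75.5 CPM in 6-shogaol libraries, and 85.3, 91.5 and 90.8 CPM in control libraries. Its 6-shogaol values were all below its control values, and the difference missed the threshold (log2 fold change -0.24, SE 0.06, edgeR adjusted p = 0.0958). ANKRD37, a small ankyrin-repeat protein gene, had 5.98 to 8.11 CPM with 6-shogaol and 6.98 to 8.91 CPM in control cells, with overlapping groups (log2 fold change -0.21, edgeR adjusted p = 0.546). It shares 35.2% of its exon length with the opposite-strand gene UFSP2, so that its counts are uncertain. Over these 7 genes the median log2 fold change was 0.36, with 3 called higher and 0 lower. Over the other 30 genes it was 0.04, with 0 called in either direction. Of all genes, 1.67% were called higher and 1.71% lower. The other 30 also hold HIF-responsive genes, such as SLC2A1, PFKFB4, PGK1, LDHA and PDK1 (log2 fold changes 0.01, 0.28, 0.36, -0.21 and 0.28). In those 30, 7 were higher and 3 lower at an unadjusted p under 0.05, against 10.4% and 9.95% of all genes. DESeq2 and limma each called 2 of them higher and 0 lower. Over the genes each tested, DESeq2 called 4.96% higher and 5.13% lower, and limma 3.53% and 2.51%.

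Promoter sequence is shown for HIF targets that differed in how they moved: P4HA1 and P4HA2, which rose, BNIP3 and PGK1, whose groups were apart in the same direction without a call, and LDHA, a classic HIF target whose values were lower with 6-shogaol. Each is the 250 bases before the gene's start from RefSeq on GRCh38.p14, printed 5′ to 3′ on the gene's strand, and capitals mark matches to ACGTG or GCGTG on either strand, so that CACGT and CACGC are matches on the opposite strand. Overlapping matches were merged into 1 place, so that CACGTG, which is also an E-box, counts as 1. P4HA1 has 1 place (chr10:73096867-73097116, minus strand).
P4HA1: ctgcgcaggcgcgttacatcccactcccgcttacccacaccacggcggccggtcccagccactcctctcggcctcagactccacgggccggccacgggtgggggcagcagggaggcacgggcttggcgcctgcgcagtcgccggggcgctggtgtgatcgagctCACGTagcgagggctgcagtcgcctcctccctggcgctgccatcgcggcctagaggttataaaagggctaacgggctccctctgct
P4HA2 has 0 places in its window (chr5:132227092-132227341, minus strand), which lies within the deposited gene and far from its outer end.
P4HA2: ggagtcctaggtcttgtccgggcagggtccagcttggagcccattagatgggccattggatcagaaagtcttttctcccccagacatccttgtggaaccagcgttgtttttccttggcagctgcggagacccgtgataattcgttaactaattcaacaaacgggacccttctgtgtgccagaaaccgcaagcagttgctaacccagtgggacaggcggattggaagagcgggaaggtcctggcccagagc
BNIP3 has 5 places (chr10:131981924-131982173, minus strand), of which 1 is CACGTG.
BNIP3: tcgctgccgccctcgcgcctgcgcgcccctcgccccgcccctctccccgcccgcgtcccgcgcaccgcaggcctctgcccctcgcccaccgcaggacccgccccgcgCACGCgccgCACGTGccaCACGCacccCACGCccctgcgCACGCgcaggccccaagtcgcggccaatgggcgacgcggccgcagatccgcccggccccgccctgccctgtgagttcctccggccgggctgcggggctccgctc
PGK1 has 3 places (chrX:78103998-78104247, plus strand), in a window that also lies within the deposited gene and far from its start at 77910739.
PGK1: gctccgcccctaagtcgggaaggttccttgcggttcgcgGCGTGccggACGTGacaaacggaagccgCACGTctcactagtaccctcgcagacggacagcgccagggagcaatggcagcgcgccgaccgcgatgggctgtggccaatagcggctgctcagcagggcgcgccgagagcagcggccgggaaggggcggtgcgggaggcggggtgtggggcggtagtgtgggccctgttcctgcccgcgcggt
LDHA has 3 places (chr11:18394313-18394562, plus strand), including CACGTG.
LDHA: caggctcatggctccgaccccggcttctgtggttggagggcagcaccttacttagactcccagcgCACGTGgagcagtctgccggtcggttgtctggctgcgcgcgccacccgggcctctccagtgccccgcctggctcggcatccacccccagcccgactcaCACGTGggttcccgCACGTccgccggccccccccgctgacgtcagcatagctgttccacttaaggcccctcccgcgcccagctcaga

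A window was used for 33 of the 37 genes, and 21 of them (63.6%) held at least 1 such place. Of 35116 RefSeq windows of the same length, 43.2% did. Windows on chromosome 8, where NDRG1 and BNIP3L lie, were left out for the 37 genes but not for the 35116. No window was found for SLC2A3 and PFKFB2. CACGTG stood in 6 of the 33 (18.2%), against 6.35% of all windows. The 35116 windows were not matched to the 33 in expression or base content, and neither difference was tested. Of the 5 genes printed, the 2 called by edgeR have 1 place (P4HA1) and 0 places (P4HA2) in these windows. The others have 5 (BNIP3), 3 (PGK1) and 3 (LDHA). Whether places go with the direction of change was not tested. A match is a string of letters, and binding was not measured.

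**Figure D2:**
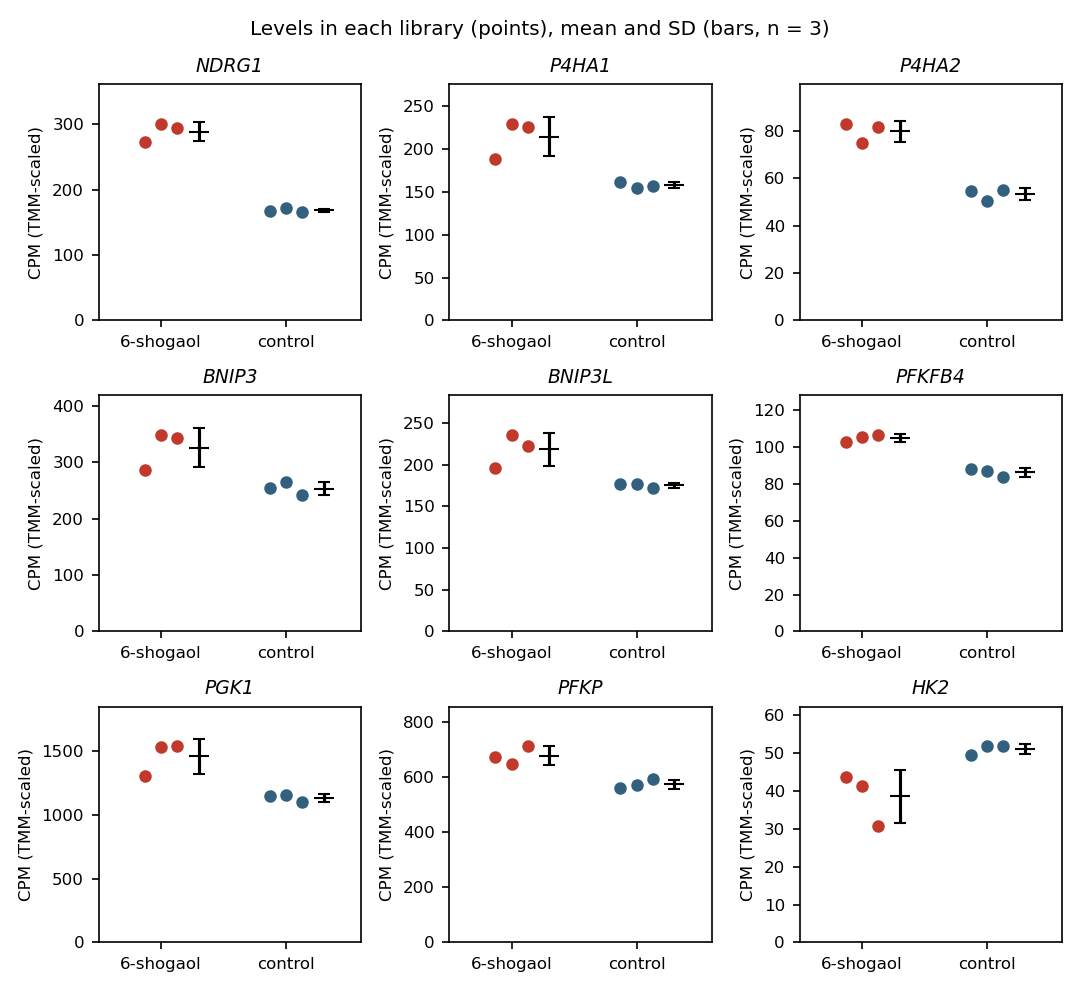
TMM-scaled CPM in each library for 9 genes, with the mean and SD of each group of 3 beside the points and each axis starting at 0. The 6-shogaol points lie above all control points for 8 genes and below them for HK2.

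Neither glucose transporter gene was called. SLC2A1, the main constitutive and HIF-responsive glucose transporter GLUT1, had 257 to 261 CPM with 6-shogaol and 251 to 270 CPM in control cells, with nearly equal means (log2 fold change 0.01, SE 0.06, edgeR adjusted p = 0.939). SLC2A3, the high-affinity neuronal-type transporter GLUT3, had 41.6, 50.3 and 50.6 CPM in 6-shogaol libraries, and 45.6, 38.7 and 42.6 CPM in control libraries. Its groups overlapped, since 6-shogaol library 1 lay within the control range, and the difference was not called (log2 fold change 0.17, SE 0.11, edgeR adjusted p = 0.443).

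Hexokinases trap glucose in the cell by phosphorylation. HK2, the inducible form found in many tumours, had 43.7, 41.3 and 30.7 CPM in 6-shogaol libraries, and 49.5, 51.8 and 51.9 CPM in control libraries. All treated values were below all control values, with library 3 the lowest, but the difference missed the threshold (38.6 ± 6.94 CPM with 6-shogaol and 51.1 ± 1.33 CPM in control cells, SD, n = 3 each; log2 fold change -0.41, SE 0.13, edgeR adjusted p = 0.15). HK1, the housekeeping form, overlapped between groups, at 244 to 341 CPM with 6-shogaol and 264 to 312 CPM in control cells (edgeR adjusted p = 0.92). The FPKM ratio of HK2 to HK1 was 0.136, 0.150 and 0.134 in 6-shogaol libraries and 0.169, 0.208 and 0.197 in control libraries, without overlap. The difference in the log2 ratio was -0.45, with an exact two-sided permutation p of 0.1, the smallest that 3 against 3 libraries allow (0.267 adjusted over 8 ratios). GPI, which converts glucose 6-phosphate to fructose 6-phosphate, had 753 to 870 CPM with 6-shogaol and 705 to 750 CPM in control cells, without overlap (log2 fold change 0.17, edgeR adjusted p = 0.244).

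Phosphofructokinase, the committed step, is a tetramer of subunits from PFKL, PFKM and PFKP. PFKP, the platelet-type subunit and the most abundant of these subunits per length, had 674, 645 and 713 CPM in 6-shogaol libraries, and 559, 570 and 591 CPM in control libraries. The groups did not overlap, and the difference was not called (677 ± 33.8 CPM with 6-shogaol and 574 ± 16.4 CPM in control cells, SD, n = 3 each; log2 fold change 0.24, SE 0.06, edgeR adjusted p = 0.087). PFKL and PFKM each had a log2 fold change of 0.01 with overlapping groups (edgeR adjusted p = 0.969 and 0.978).

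The PFKFB enzymes make and break fructose 2,6-bisphosphate, the strongest activator of phosphofructokinase. PFKFB4, a hypoxia-inducible form, had 103, 105 and 107 CPM in 6-shogaol libraries, and 88.3, 86.8 and 83.8 CPM in control libraries. The replicates were close together and the groups apart (105 ± 2.02 CPM with 6-shogaol and 86.3 ± 2.31 CPM in control cells, SD, n = 3 each), yet the adjusted p missed the threshold narrowly (log2 fold change 0.28, SE 0.06, edgeR adjusted p = 0.0566). DESeq2 called PFKFB4 (adjusted p = 0.025) and so did limma on log2(FPKM + 1) (adjusted p = 0.0324). PFKFB3, the form with the highest kinase activity, was 247 to 290.0 CPM with 6-shogaol and 249 to 314 CPM in control cells (edgeR adjusted p = 0.604). PFKFB2 was the least abundant of the 37 per length, at 0.497 FPKM with 6-shogaol and 0.569 FPKM in control cells (means), and was not called (log2 fold change -0.22, edgeR adjusted p = 0.46).

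From aldolase to pyruvate kinase, 0 of 9 genes were called by edgeR, and their median log2 fold change was 0.16. At an unadjusted p under 0.05, 3 were higher and 1 lower, against 10.4% and 9.95% of all genes. DESeq2 and limma each called 1, PGK1, where they called 4.96% and 3.53% of the genes they tested higher. PGK1, which makes ATP from bisphosphoglycerate, had 1304, 1537 and 1543 CPM in 6-shogaol libraries, and 1146, 1159 and 1099.9 CPM in control libraries. All treated values lay above all control values, with library 1 the nearest to them. The means were 1461 ± 136 CPM with 6-shogaol and 1135 ± 31.1 CPM in control cells (SD, n = 3 each). The edgeR test narrowly missed the threshold (log2 fold change 0.36, SE 0.08, adjusted p = 0.0566), and DESeq2 and limma passed it (adjusted p = 0.00712 and 0.0388). GAPDH, which oxidises glyceraldehyde 3-phosphate, had 5661, 6273 and 6119 CPM in 6-shogaol libraries, and 5381, 5378 and 4296 CPM in control libraries. The groups did not overlap, and control library 3 was low (log2 fold change 0.26, SE 0.10, edgeR adjusted p = 0.195). PGAM1, phosphoglycerate mutase, had 1185 to 1283 CPM with 6-shogaol and 1049.8 to 1106 CPM in control cells, without overlap (log2 fold change 0.18, edgeR adjusted p = 0.145).

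TPI1 and ALDOC had values on the other side of control. TPI1, which interconverts the triose phosphates, had 526 to 663 CPM with 6-shogaol and 705 to 741 CPM in control cells, without overlap (log2 fold change -0.29, SE 0.09, edgeR adjusted p = 0.131). ALDOC, the brain aldolase, was low throughout, with 1.77, 1.77 and 1.47 CPM in 6-shogaol libraries and 2.28, 2.70 and 1.95 CPM in control libraries. Its groups did not overlap, and the difference was not called (1.67 ± 0.175 CPM with 6-shogaol and 2.31 ± 0.377 CPM in control cells, SD, n = 3 each; log2 fold change -0.47, SE 0.22, edgeR adjusted p = 0.295). ALDOA, the main aldolase, overlapped between groups (log2 fold change -0.06, edgeR adjusted p = 0.798) and shares 42.3% of its exon length with the same-strand gene AC093512.2. ENO1, the common enolase, and PKM, the pyruvate kinase of muscle and most tumours, also overlapped (log2 fold changes 0.16 and 0.05, edgeR adjusted p = 0.335 and 0.792).

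ENO2, the neuronal enolase, rested on 1 library. It had 202, 104 and 108 CPM in 6-shogaol libraries, and 78.0, 141 and 84.1 CPM in control libraries (log2 fold change 0.45, SE 0.32, edgeR adjusted p = 0.491). 6-shogaol library 1 was far above the rest, and libraries 2 and 3 lay within the control range. Without 6-shogaol library 1, the log2 ratio of ENO2 to ENO1 differed between groups by -0.0178, against 0.27 with it.

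The 22 genes from glucose uptake to lactate dehydrogenase, the PFKFB enzymes included, took 1.98%, 1.94% and 1.94% of all counts in 6-shogaol libraries 1, 2 and 3, and 1.72%, 1.80% and 1.71% in control libraries. GAPDH made up 46.3% to 49.7% of their summed FPKM with 6-shogaol and 40.9% to 47.8% in control cells. Without GAPDH, their summed level was 13255 to 13708 CPM with 6-shogaol and 11949.7 to 12837 CPM in control cells. Every 6-shogaol library stood above every control library in the share of counts and in the sum without GAPDH, but GAPDH's share overlapped. These sums are weighted towards a few abundant genes and were not tested.

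**Figure D3:**
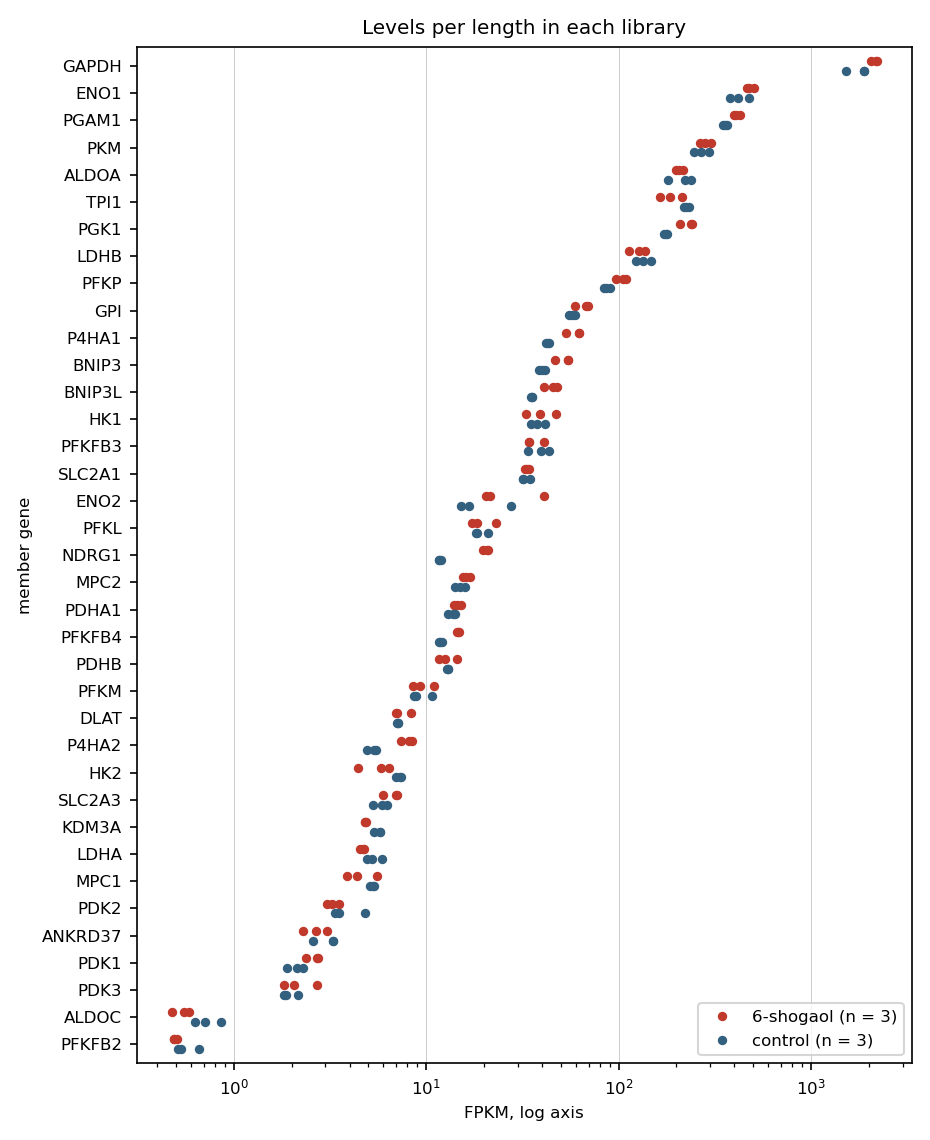
FPKM (a level per transcript length and library size, log axis) of each of the 37 genes in each library, ordered by mean level, with 6-shogaol in red above control in blue. GAPDH leads at 2140.5 FPKM on average with 6-shogaol and 1758 FPKM in control cells, and ALDOC and PFKFB2 lie below 1 FPKM in all libraries.

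Per length, GAPDH led the order of levels at 2140.5 ± 76.3 FPKM with 6-shogaol and 1758 ± 207 FPKM in control cells (SD, n = 3 each). ENO1 followed with 482 ± 23.3 FPKM with 6-shogaol and 425 ± 46.9 FPKM in control cells, and PGAM1 with 411 ± 16.6 FPKM with 6-shogaol and 357 ± 6.97 FPKM in control cells. PKM came next with 283 ± 19.1 FPKM with 6-shogaol and 269.5 ± 23.9 FPKM in control cells. ENO1 and PGAM1 did not overlap within either group. ALDOA, the next in order, had 207 ± 8.74 FPKM with 6-shogaol and 213 ± 28.7 FPKM in control cells, and overlapped with TPI1, at 187 ± 25.2 FPKM with 6-shogaol and 225 ± 7.11 FPKM in control cells. PGK1 had 229 ± 17.9 FPKM with 6-shogaol, where it overlapped with both, and 175 ± 3.51 FPKM in control cells, where it lay below both. At the low end, ALDOC and PFKFB2 were below 1 FPKM.

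In the deposited values LDHB stood far above LDHA, and how reads were assigned to these genes is not known. LDHB had 126 ± 12.1 FPKM with 6-shogaol and 135 ± 12.0 FPKM in control cells (SD, n = 3 each). LDHA, the form that favours lactate production, had 4.68 ± 0.119 FPKM with 6-shogaol and 5.34 ± 0.478 FPKM in control cells. In CPM, LDHA had 32.8, 32.8 and 34.0 in 6-shogaol libraries, and 37.9, 35.7 and 41.9 in control libraries. All treated values lay below all control values and the difference was not called (log2 fold change -0.21, SE 0.08, edgeR adjusted p = 0.221). LDHB overlapped between groups (log2 fold change -0.12, edgeR adjusted p = 0.541). The FPKM ratio of LDHA to LDHB was 0.0348 to 0.0402 with 6-shogaol and 0.0356 to 0.0436 in control cells. LDHB shares 33.4% of its exon length with the same-strand gene AC010197.2, and LDHA shares none with counted genes, both by GENCODE release 29, whose outer coordinates for these genes differ from the deposited ones.

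Pyruvate dehydrogenase kinases hold pyruvate back from oxidation. PDK1, the HIF-responsive member, had 40.6, 48.8 and 47.1 CPM in 6-shogaol libraries, and 38.0, 40.8 and 33.3 CPM in control libraries. 6-shogaol library 1 lay just below control library 2, so the groups overlapped, and the difference was not called (log2 fold change 0.28, SE 0.11, edgeR adjusted p = 0.206). PDK2 and PDK3 overlapped between groups as well, with log2 fold changes of -0.27 and 0.15 (edgeR adjusted p = 0.386 and 0.657). PDK2 shares 38.5% of its exon length with the opposite-strand gene SAMD14. The log2 count ratio of PDK1 to PDHA1 was 0.21 higher with 6-shogaol, without overlap (exact two-sided permutation p = 0.1, the smallest possible, and 0.267 adjusted over 8 ratios).

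Among the pyruvate carrier and dehydrogenase complex, 0 of 5 genes were called, by edgeR, DESeq2 or limma, 0 passed an unadjusted p under 0.05 in edgeR, and all 5 overlapped between groups. MPC1, a subunit of the mitochondrial pyruvate carrier, had 7.77, 10.2 and 7.07 CPM in 6-shogaol libraries, and 10.0, 9.51 and 9.73 CPM in control libraries. 6-shogaol libraries 1 and 3 lay below all control libraries and library 2 above them (8.36 ± 1.67 CPM with 6-shogaol and 9.75 ± 0.245 CPM in control cells, SD, n = 3 each; log2 fold change -0.22, SE 0.16, edgeR adjusted p = 0.503). MPC2, the partner subunit, and PDHA1, PDHB and DLAT, subunits of the complex, had log2 fold changes from -0.03 to 0.08. MPC2 shares 22.5% of its exon length with the opposite-strand gene DCAF6.

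Further genes of the same pathways, outside the 37, were read from the same test. Their lists were chosen with earlier results of these data known, so the counts are not independent support. Of 36 other HIF targets, 35 were tested, and 11 were called higher and 1 lower, with a median log2 fold change of 0.30. Of all genes, 1.67% were called higher and 1.71% lower. The groups overlapped for 17 of the 35, against 13894 of all 19279 genes. They were apart for 17 that were higher and 1 that was lower, against 14.0% and 13.9% of all genes. Negative log2 fold changes were found for 7 of the 35, against 9640 of all 19279 genes. DDIT4, an inhibitor of mTORC1 that also answers to other stresses, had 631, 733 and 681 CPM in 6-shogaol libraries, and 283, 297 and 316 CPM in control libraries (log2 fold change 1.19, SE 0.08, edgeR adjusted p = 0.00209). CA9, a cell-surface carbonic anhydrase used as a marker of hypoxia, had 112, 102 and 99.4 CPM in 6-shogaol libraries, and 48.4, 46.5 and 46.9 CPM in control libraries (log2 fold change 1.15, SE 0.07, edgeR adjusted p = 0.00209). CA9 shares 38.5% of its exon length with the opposite-strand gene ARHGEF39. For both genes every 6-shogaol library lay far above every control library. ANGPTL4, a secreted inhibitor of lipoprotein lipase, was low and rose, with 2.48 to 2.83 CPM with 6-shogaol and 0.464 to 0.867 CPM in control cells (log2 fold change 2.004, SE 0.29, edgeR adjusted p = 0.0187). KDM4B, a histone demethylase and the gene called lower, had 102 ± 4.12 CPM with 6-shogaol and 131 ± 2.78 CPM in control cells (SD, n = 3 each; log2 fold change -0.35, edgeR adjusted p = 0.0356). It was singled out after its values were seen, and this list had 0 lower calls without a filter and in 5 of the 6 fits that left out a library, all but that without 6-shogaol library 1.

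Of the HIF factors and their hydroxylases, 7 of 8 were tested and 1 was called higher, against 1.67% of all genes. EPAS1, which encodes HIF-2α, had 56.3, 61.7 and 60.0 CPM in 6-shogaol libraries, and 29.7, 30.2 and 30.9 CPM in control libraries (log2 fold change 0.97, SE 0.07, edgeR adjusted p = 0.00358). All its treated values were close to each other and well above all control values. HIF1A, which encodes HIF-1α, had 611 to 699 CPM with 6-shogaol and 594 to 609 CPM in control cells, without overlap and without a call (log2 fold change 0.14, SE 0.07, edgeR adjusted p = 0.307). HIF-1α is mainly set by protein stability, and these data measure neither HIF-1α nor HIF-2α protein.

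Other glycolytic enzymes and transporters gave 1 call among 16 tested of 27 listed, with a median log2 fold change of -0.05. The share called over all genes was 1.67% higher and 1.71% lower. The called gene was SLC2A13, a proton-linked inositol transporter of the GLUT family, with 12.5, 16.8 and 15.1 CPM in 6-shogaol libraries, and 9.34, 9.08 and 7.95 CPM in control libraries (log2 fold change 0.75, SE 0.14, edgeR adjusted p = 0.0409). The groups did not overlap, and libraries 2 and 3 were the highest. DESeq2 called it (adjusted p = 0.000821), and limma did not (adjusted p = 0.0606) and called 0 genes of this list. Other pyruvate genes gave 0 edgeR calls among 10 tested of 14 listed, with a median of 0.24. At an unadjusted p under 0.05, 3 of them were higher and 0 lower, against 10.4% and 9.95% of all genes. DESeq2 called 1 of them higher, against 4.96% of the genes it tested, and limma called 0. The 8 pentose phosphate genes gave 0 calls by edgeR, DESeq2 and limma, 0 at an unadjusted p under 0.05 in edgeR, and a median of -0.05.

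**Figure D4:**
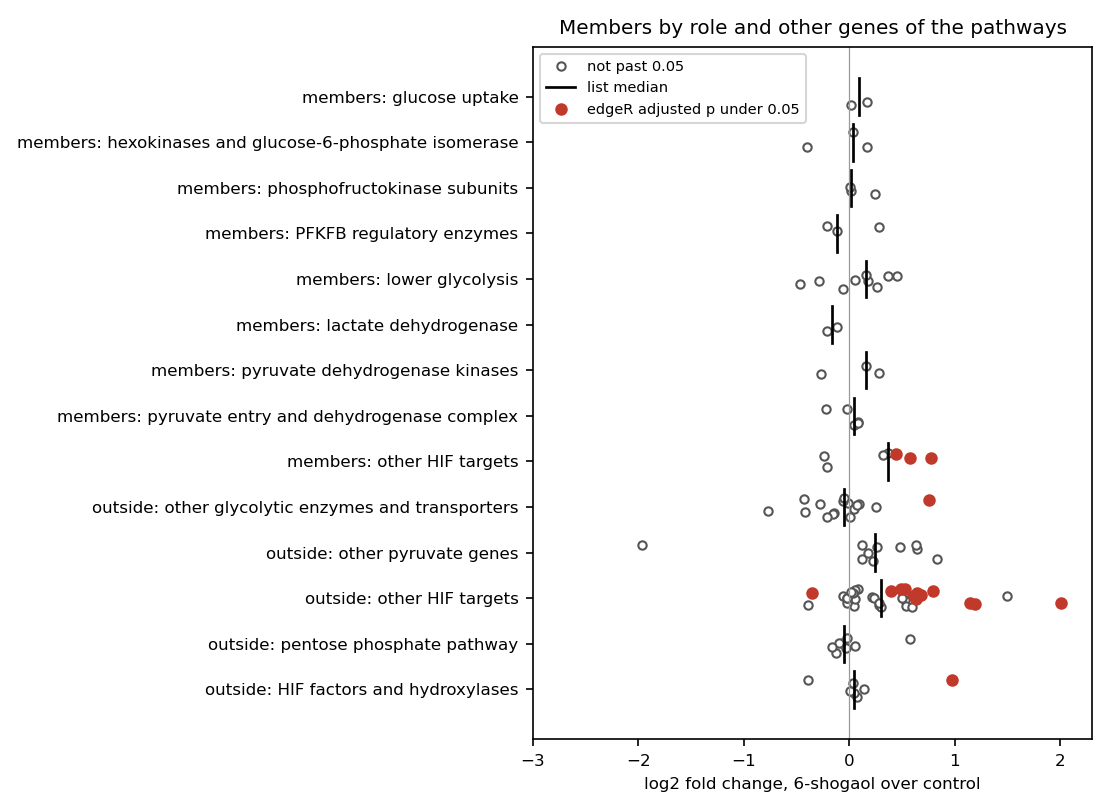
Log2 fold change, 6-shogaol over control, of each tested gene (points) in each role of the 37 genes and in the further lists, with list medians as black bars and genes called by edgeR filled in red. Among the 37 genes the red points are NDRG1, P4HA2 and P4HA1, and among the further HIF targets 11 are to the right of 0 and 1 to the left.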

How the data were processed

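RNA sequencing libraries of U251 cells were analysed from the authors' deposited tables, 3 with 6-shogaol and 3 controls, with groups taken from the sample titles. The authors deposited raw counts per gene, not normalized, and FPKM values for the same genes, per the file headers. Per the labels' protocols, RNA was extracted with Trizol and libraries made with a SMARTER mRNA-Seq kit. The submitters' processing notes name GRCm38 and mm10, which are mouse builds, but all 60612 identifiers are human Ensembl identifiers. Which aligner, counter and strand option made them is not given in the sources used here, so reads of overlapping genes cannot be separated. All 37 genes overlap the same gene in GENCODE release 29 on GRCh38, but only 15 have the same start and end and 22 do not, so exon sharing, read from that release, is approximate. Coordinates are those of the deposited table.

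Tests on counts used edgeR 4.0.16 under R 4.3.3 (filterByExpr, TMM, glmQLFit and glmQLFTest), with Benjamini-Hochberg adjustment over 19279 genes and a threshold of 0.05. Standard errors were the size of the log2 fold change over the root of F. A gene at 0 counts could have had 0.05 to 0.0689 CPM (3 counts, counting error only). Log2 ratios used the deposited counts with 0.5 added, and exact permutation tests over libraries. Alternatives were DESeq2 1.42.0, limma 3.58.1 on log2(FPKM + 1), for genes reaching 1 FPKM in 3 libraries or without a filter, and on log2(FPKM + 0.1), RLE and upper-quartile scaling, no filter or 1 CPM in 3 libraries, robust moderation, a replicate block and each library left out. Limma fold changes understate those of low genes. Scripts were tested on simulated data.

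The 37 genes and all lists were chosen with earlier results of these data known. Values in every library are given for called genes, for the gene with the smallest adjusted p in each role without a call, and for genes with groups apart and an absolute log2 fold change of at least 0.3. Of the further lists, at most 4 called genes each were to be named by size of change, of which 1 is not reported here. GENCODE exons gave overlaps with genes of at least 10 counts on average. Pseudogenes took at most 3.60% of the joint counts of any of the 37 and its pseudogenes.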

Additional observations from a re-analysis of the deposited data

How the results depend on the processing

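By edgeR, 651 genes were called over all tested, 3 of the 37 genes, 14 other pathway genes and 12 of the other HIF targets outside the 37. DESeq2 called 1554 genes and 7 of the 37. Without a filter, 378 genes, 2 of the 37, 8 other pathway genes and 7 other HIF targets were called, and limma without a filter called 277, 3, 8 and 7. P4HA1 was lost in both (adjusted p = 0.0651 by edgeR and 0.071 by limma). A filter of 1 CPM called 856 of 14811 genes and 5 of the 37, and limma called 6 of the 37 with either pseudocount. Leaving out each library in turn gave 98 to 1012 genes, 1 to 8 of the 37, 5 to 16 other pathway genes and 4 to 14 other HIF targets. The highest count over all genes was without 6-shogaol library 1 and the lowest without control library 2. The log2 ratio of ENO2 to ENO1 was reversed without 6-shogaol library 1, at -0.0178, and reached 0.54 when others were left out. The cause was not tested.

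NDRG1 passed in 15 of 16 alternatives (log2 fold change 0.75 to 0.82), P4HA2 in 11 and P4HA1 in 8. P4HA1 had an adjusted p of 0.0143 to 0.164 when a library was left out, and P4HA2 of 0.0254 to 0.0783. Every fold change of these 3 genes was positive in all 16.

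Deviations of same-numbered libraries correlated at -0.03, 0.06 and -0.04, and those of other pairs at -0.06 to 0.09. With 3 libraries per group, these values cannot settle whether the replicate numbers pair the libraries. With the replicate number as a block, edgeR called 3 genes in all, 0 of the 37, 0 other pathway genes and 0 other HIF targets, while 10 of the 37 were higher and 3 lower at an unadjusted p under 0.05, as were 26 and 3 other pathway genes and 19 and 2 other HIF targets. Over all genes, 8.53% were higher and 8.53% lower by that measure. NDRG1 then had an adjusted p of 0.069. Depth limits ALDOC, with 646 counts in all, more than the other 36 genes.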
